A study of Mus musculus with 4 samples.

Results

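Esrrb, Tfcp2l1 and Nr5a2, 3 of the 32285 genes in the matrix, were taken by their symbols, each of which occurs once. All 3 genes encode transcription factors of naive pluripotency, the state of embryonic stem cells that resembles the inner cells of the preimplantation embryo. Each had between 2634 and 16480 UMIs per library (unique molecular identifiers, the tags that mark single captured RNA molecules) and passed every minimum on counts used here.

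The series holds 4 samples of male mouse embryonic stem cells (mESC) of the E14tg2a.4 line, 2 WT and 2 Srrm2 hKO. The hKO (heterozygous knockout) cells carry a gene-trap insertion that truncates 1 allele of Srrm2, which encodes a spliceosome protein, and they are a line grown from 1 clone, so clone and genotype cannot be told apart. All cells were grown on gelatin with LIF, the cytokine that sustains self-renewal, and then in serum-free medium with LIF, for a time that the labels give as alternatives. Single cells were captured in droplets and the 3′ ends of their transcripts were sequenced. The counts of the 4 libraries were deposited together, and each cell is marked by the number of its library but by no sample name. No library was therefore assigned to WT or Srrm2 hKO, no test between the genotypes was made, and the libraries are described by number.

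A cell filter rebuilt from the study's stated limits, which did not leave exactly the study's number of cells, kept 31989 of 41142 barcodes, from 7464 to 8514 cells per library, with median UMIs per cell between 18378 and 21898. The trapped gene, Srrm2, stood at 387, 533, 238 and 356 CPM (UMIs per 1000000 UMIs of the kept cells) in libraries 1 to 4, which leaves the labels of the libraries unchecked. The embryonic stem cell markers Pou5f1, Sox2, Nanog, Zfp42 and Sall4 summed to between 1592 and 2038 CPM. The keratins Krt8 and Krt18 and the contractile markers Acta2 and Tagln together summed to 65.3, 45.4, 894 and 263 CPM, so that libraries 3 and 4 stood apart from libraries 1 and 2. The markers of fibroblasts reached at most 9.11 CPM (library 3), those of primitive endoderm 1.33 CPM, those of the primitive streak 4.21 CPM and those of two-cell-like cells 0.934 CPM. The trophectoderm list was higher, at 48.6, 45.6, 35.0 and 24.6 CPM in libraries 1 to 4. Most of this was Tfap2c, which mESC also express, at 48.3, 45.0, 32.5 and 23.2 CPM. Of the kept cells, 211 carried a barcode sequence that also occurred in another library.

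Esrrb is an orphan nuclear receptor, that is, a receptor-like transcription factor that binds DNA without a hormone. It is known as a target of Nanog and as a gene that Tcf7l1 (Tcf3) represses until Wnt signalling or inhibition of Gsk3 lifts that repression. Tfcp2l1 belongs to the grainyhead-like CP2 family and is known as a target of LIF and STAT3 that can sustain self-renewal. Nr5a2 (Lrh1) is another orphan nuclear receptor, which can bind the Pou5f1 locus and can replace Pou5f1 protein in reprogramming. When mESC leave the naive state for the formative state, a step towards lineage commitment, the 3 genes are known to be switched off while Dnmt3b, Otx2, Fgf5 and Pou3f1 come on.

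Esrrb (ENSMUSG00000021255) lies on chromosome 12, from position 86361117 to 86521628 of GRCm38 (the build that mm10 names) on the plus strand, and has 5 coding transcripts of 6 or 7 exons. Tfcp2l1 (ENSMUSG00000026380) lies on the plus strand of chromosome 1, from 118627945 to 118685168, with 1 coding transcript of 15 exons. Nr5a2 (ENSMUSG00000026398) lies on the minus strand of the same chromosome, from 136842571 to 136960448, with 5 coding transcripts of 5 to 9 exons. No other gene of the matrix overlaps any of the 3, but 3 annotated genes outside the matrix overlap Tfcp2l1, and whether their reads were counted for it was not tested. The 3′ counts do not separate their transcripts.

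The 250 bases before the outermost start of each gene are shown because the 3 genes varied together from cell to cell, as described further on (RefSeq sequence, GRCm38.p6). The Esrrb stretch is chr12:86360867-86361116 (plus strand), the Tfcp2l1 stretch is chr1:118627695-118627944 (plus strand) and the Nr5a2 stretch is chr1:136960449-136960698 (minus strand). Capitals mark TATAAA or its reverse complement and AGGTCA, the nuclear receptor half-site; these motifs were added after the longer ones were found absent.
Esrrb: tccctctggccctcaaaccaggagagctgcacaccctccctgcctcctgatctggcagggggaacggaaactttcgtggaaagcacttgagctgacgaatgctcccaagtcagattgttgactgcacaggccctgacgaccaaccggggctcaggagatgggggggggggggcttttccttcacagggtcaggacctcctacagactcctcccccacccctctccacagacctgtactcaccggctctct
Tfcp2l1: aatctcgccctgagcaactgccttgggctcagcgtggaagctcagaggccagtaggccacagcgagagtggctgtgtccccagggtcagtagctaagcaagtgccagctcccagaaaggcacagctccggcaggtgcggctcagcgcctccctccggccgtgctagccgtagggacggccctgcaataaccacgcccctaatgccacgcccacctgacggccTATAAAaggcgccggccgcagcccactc
Nr5a2: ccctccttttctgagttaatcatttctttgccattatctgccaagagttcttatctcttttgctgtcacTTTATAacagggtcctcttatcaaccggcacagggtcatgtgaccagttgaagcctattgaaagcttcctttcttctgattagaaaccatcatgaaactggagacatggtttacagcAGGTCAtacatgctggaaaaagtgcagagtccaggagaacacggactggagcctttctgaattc
TATAAA began 28 bases before the start of Tfcp2l1, and its reverse complement lay further out in the Nr5a2 stretch; 13.6% of all 32851 promoter windows in the RefSeq table, which span 300 bases each and also take in the first bases after the start, hold it on either strand. AGGTCA stood 64 bases before the start of Nr5a2, a motif that 16.3% of the windows hold. Neither strand of the windows of the 3 genes, a further start of Esrrb and one of Nr5a2 included, held AAGGTCA (4.72% of windows), the Esrrb nonamer TCAAGGTCA, which contains it (0.423%), the STAT motif TTCCNGGAA (1.15%) or the TCF motif CTTTGAT (3.73%). The absence of these letters from windows of this length does not bear on binding elsewhere at these genes.

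The first question was how far the level of each gene differed between the libraries. Esrrb stood at 66.9 CPM in library 1, 52.5 in library 2, 49.2 in library 3 and 30.4 in library 4. Library 1 exceeded library 4 by 2.20-fold (95% interval from Poisson counts 2.13 to 2.28), and libraries 2 and 3 were the closest neighbours, at 1.07-fold (1.04 to 1.10). All intervals given here are for counting error alone and do not include differences between cultures or between random draws of UMIs.

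Tfcp2l1 followed the same order with a wider range. Its level was 98.8, 79.5, 66.7 and 30.6 CPM in libraries 1 to 4, and library 1 exceeded library 4 by 3.23-fold (3.13 to 3.33). The largest step lay between libraries 3 and 4, at 2.18-fold (2.11 to 2.25). Nr5a2 had another order, with 30.8 CPM in library 2, 24.7 in library 1, 17.2 in library 3 and 15.1 in library 4. Its highest and lowest libraries differed 2.03-fold (1.94 to 2.13). For each of the 3 genes, every pair of neighbours in the order differed by more than counting error.

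As a background, the highest and lowest libraries differed by a median of 1.42-fold over 11099 genes with enough counts. A fold at least as large as that of Esrrb was reached by 12.4% of those genes, one as large as that of Tfcp2l1 by 4.21%, and one as large as that of Nr5a2 by 15.4%. The order of Esrrb and Tfcp2l1 was shared by 4.67% of the genes and that of Nr5a2 by 2.18%.

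**Figure D1:**
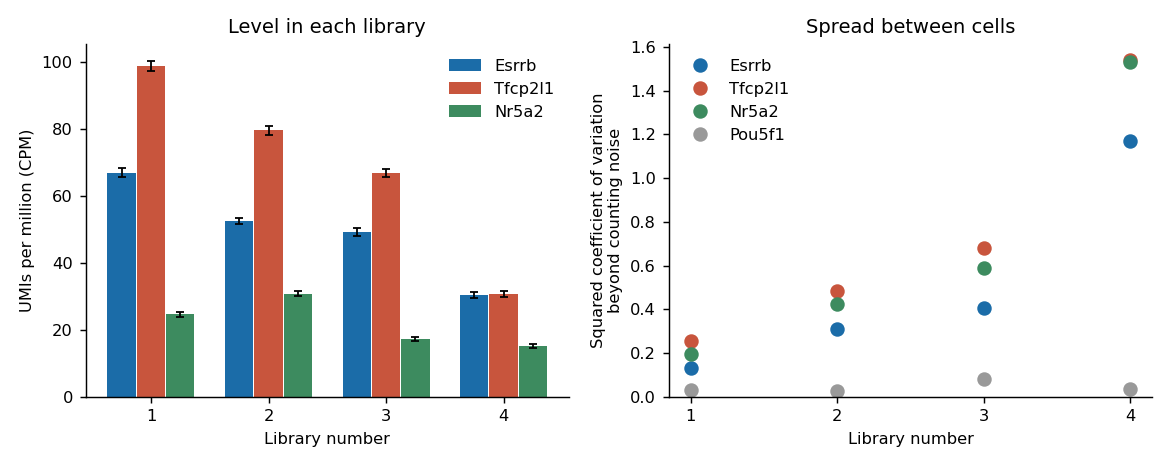
Left, level of Esrrb, Tfcp2l1 and Nr5a2 in the kept cells of each library (CPM; bars start at 0, error bars are exact 95% Poisson intervals). Right, spread between cells, as the squared coefficient of variation beyond counting noise, with Pou5f1 for comparison; library 4 has the lowest levels of the 3 genes (30.4, 30.6 and 15.1 CPM) and their largest spreads (1.17, 1.54 and 1.53).

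The proportions of the 3 genes also differed between libraries. There were 2.71, 1.71, 2.86 and 2.01 Esrrb UMIs per Nr5a2 UMI in libraries 1 to 4, so that libraries 1 and 3 lay above libraries 2 and 4. Tfcp2l1 UMIs per Nr5a2 UMI numbered 4.00, 2.58, 3.88 and 2.02, with the same division. The ratio of Esrrb to Tfcp2l1 was 0.678, 0.660 and 0.737 in libraries 1 to 3 and 0.993 in library 4. Among cells that held a UMI of Zfp42 (Rex1, a marker of naive cells), the Esrrb to Nr5a2 ratios were 2.68, 1.69, 2.82 and 2.02, close to those over all kept cells.

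Relatives of the 3 factors and their coactivator and LIF partners were compared with them. Esrra, the nearest relative of Esrrb with counts, stood between 7.53 and 8.43 CPM in every library, while Esrrg and Nr5a1 had at most 5 and 2 UMIs in a library. Nr5a1 was not detectable above the floor of 3 counts in any library, and Esrrg was not in libraries 1 and 2. Ubp1, a CP2 relative of Tfcp2l1, ranged from 41.2 to 55.0 CPM and was highest in library 4, where Tfcp2l1 was lowest, whereas the other CP2 relative, Tfcp2, stood at 10.0, 6.88, 8.87 and 6.70 CPM, lowest in library 4. Ncoa3, a coactivator that binds Esrrb, ranged from 52.1 to 57.8 CPM. Stat3, whose product acts upstream of Tfcp2l1, ranged from 39.0 to 48.3 CPM and its target Socs3 from 38.4 to 41.8 CPM. Esrra, Ubp1, Tfcp2, Ncoa3, Stat3 and Socs3 had narrower ranges than the 3 factors. Tcf7l1, the known repressor of Esrrb, had the opposite order of libraries to Esrrb, with 31.7, 47.5, 57.9 and 85.7 CPM in libraries 1 to 4. The share of genes with that order was not counted, and a link between the levels of Tcf7l1 and Esrrb was not tested. Within libraries Tcf7l1 differed little between cells with and without an Esrrb UMI, as given further on.

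Of the 12 other genes of the naive network, 8 had library 1 highest and library 4 lowest, as Esrrb and Tfcp2l1 did: Nanog, Klf2, Klf4, Klf5, Tbx3, Prdm14, Nr0b1 and Tcl1. The share of all genes with this pattern was not counted, so the 8 genes have no background to be set against. Of these 8, only Nanog and Klf2 had the stricter full order of Esrrb and Tfcp2l1. That order was shared by 4.67% of genes with enough counts, a share that is no background for the looser pattern. Nanog, the homeobox factor that activates Esrrb, stood at 154, 130, 103 and 61.9 CPM. Tbx3, a T-box factor, had a far larger range than the 3 genes, at 75.2 CPM in library 1 but 3.76 in library 4. Dppa3 (Stella) went the other way in library 1, where it was lowest at 24.4 CPM. Among the formative genes, Pou3f1 stood at 16.4, 77.7, 61.8 and 168 CPM and Dnmt3b at 79.5, 393, 146 and 586 CPM, both lowest in library 1 and highest in library 4. Dnmt3a, Fgf5, Sox4 and Sox11 were also lowest in library 1 and highest in library 4. Otx2 was lowest in library 3, at 24.4 CPM against 25.1 CPM in library 1, and Utf1 was highest in library 1, at 586 CPM.

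The next question was whether the 3 genes varied between cells of 1 library beyond counting noise. Spread was the squared coefficient of variation beyond counting noise, which is 0 where all cells share 1 level. In a draw of 5000 UMIs per cell it was the variance minus the mean over the squared mean. Over all UMIs, cells differ in depth, and another form was used. It was the mean chance that a pair of UMIs of a cell both came from the gene, over the squared mean share of the gene, minus 1. Over all UMIs, the spread of Esrrb was 0.130, 0.309, 0.404 and 1.17 in libraries 1 to 4. That of Tfcp2l1 was 0.255, 0.484, 0.679 and 1.54, and that of Nr5a2 was 0.198, 0.424, 0.589 and 1.53. The 3 genes thus had the same order of libraries, with library 1 the most even and library 4 the least. Pou5f1, the core pluripotency factor, had spreads between 0.0277 and 0.0815, under those of the 3 genes in every library. Nanog was similar to the 3 genes, at 0.192, 0.410, 0.519 and 1.05. Against 6557 genes, in 1 draw of 5000 UMIs per cell, the 3 genes were ordinary in library 1, where 36.0% of genes had at least the spread of Esrrb, 15.3% that of Tfcp2l1 and 50.6% that of Nr5a2. In library 4 the shares were 1.98%, 1.30% and 2.96%. The shares of Nr5a2 rest on that draw alone. Its spread was 0.0882 in library 1 and 0.985 in library 4, but -0.0478 and 1.98 under another draw. The formative gene Pou3f1 had the reverse order at its ends, with 13.4 in library 1 and 1.10 in library 4.

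Within cells that held a Zfp42 UMI, the spreads of Esrrb and Tfcp2l1 were smaller in every library. Measured in a random draw of 5000 UMIs per cell, they were 0.101, 0.188, 0.0935 and 0.508 for Esrrb, against 0.144, 0.326, 0.321 and 1.32 in the same draw over all kept cells. For Tfcp2l1 the values were 0.256, 0.350, 0.426 and 0.824 against 0.302, 0.532, 0.672 and 1.82. In library 1 the drops were about as small as the change between draws. Over all kept cells of that library, another draw gave 0.188 for Esrrb and 0.260 for Tfcp2l1. The spreads of Nr5a2 in a draw rested on few UMIs and differed between draws, so this comparison is not given for it.

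All kept cells held more than the 5000 UMIs of the draw, so none was left out by thinning. At 5000 UMIs per cell, an Esrrb UMI was found in 28.4%, 22.1%, 22.8% and 13.1% of the cells of libraries 1 to 4, where cells of 1 even level would give 28.9%, 23.0%, 23.7% and 14.4%. Tfcp2l1 was found in 37.1%, 29.6%, 26.9% and 13.0% of cells (39.2%, 32.2%, 29.6% and 14.8% if even), and Nr5a2 in 11.2%, 13.4%, 8.67% and 7.21% (11.3%, 13.8%, 8.80% and 7.50%). Without thinning, the shares ranged from 37.5% to 68.3% for Esrrb, from 35.9% to 77.2% for Tfcp2l1 and from 23.8% to 44.6% for Nr5a2, so a cell without a UMI in the draw often held the transcript. No cell type known to lack these transcripts was identified, so free RNA was not measured. The lowest shares, in keratin-high cells, are given further on.

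To ask whether a cell with a UMI differed in level from one without, cells were classed on the draw and levels were measured on the UMIs outside it, which share no counting noise with the classes. In library 4, Esrrb stood at 25.6 CPM in cells with no Esrrb UMI in the draw, 57.4 in cells with 1, 72.9 in cells with 2 and 114 (interval 84.6 to 150) in the 21 cells with 3 or more. In library 1, the levels were 62.3, 77.1, 78.6 and 77.1 CPM, with overlapping intervals from 1 UMI on. Tfcp2l1 climbed over all 4 classes in every library, reaching 155 from 86.9 CPM in library 1 and 110 from 24.4 CPM in library 4, though the intervals of the classes with 2 and with 3 or more UMIs overlapped in libraries 1, 2 and 4. For Nr5a2 the step from no UMI to 1 UMI was 24.0 to 31.8 CPM in library 1 and 13.2 to 38.1 CPM in library 4, while classes with 3 or more UMIs held at most 7 cells.

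**Figure D2:**
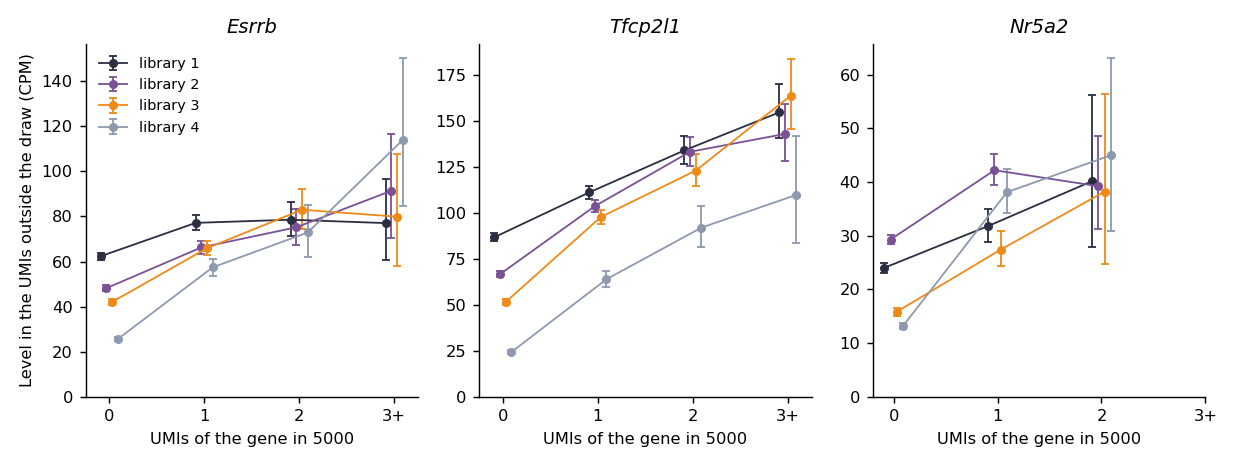
Level of each gene (CPM, linear axes from 0) in the UMIs outside the draw, for cells grouped by their UMIs of that gene in the draw of 5000; points are libraries, bars are exact 95% Poisson intervals, and classes under 20 cells are left out. The lines of library 4 start lowest (25.6, 24.4 and 13.2 CPM).

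The 3 genes rose and fell together from cell to cell in each library. In cells with an Esrrb UMI, the log2 ratio of Tfcp2l1 over cells without one was 0.23, 0.40, 0.60 and 1.18 in libraries 1 to 4, and that of Nr5a2 was 0.29, 0.34, 0.56 and 1.14. Esrrb itself, outside the draw, had 0.31, 0.50 and 0.71 in libraries 1 to 3 and an interval of 1.14 to 1.35 in library 4, so its partners differed nearly as much as the gene that set the classes. The targeted gene, Srrm2, lay between -0.07 and 0.03 in the same cells.

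Classes set on Tfcp2l1 gave log2 ratios of 0.18, 0.50, 0.59 and 1.15 for Esrrb and 0.23, 0.44, 0.65 and 1.13 for Nr5a2, against 0.45, 0.74, 1.04 and 1.52 for Tfcp2l1 itself. Classes set on Nr5a2 gave 0.23, 0.39, 0.43 and 0.93 for Esrrb, 0.13, 0.35, 0.46 and 1.16 for Tfcp2l1, and 0.43, 0.52, 0.83 and 1.56 for Nr5a2 itself. All 24 ratios between different members had intervals above 0. The smallest was Tfcp2l1 in library 1 by Nr5a2 (0.05 to 0.21), and library 4 had the highest value for each pair. Under another draw that smallest ratio became 0.23 (0.15 to 0.30), so the intervals do not cover the change between draws. Cells with and without a UMI had similar depth, with medians of 21781 and 21394 UMIs for Esrrb in library 4. The median mitochondrial share was higher in cells with a UMI for each gene in each library, for example 4.75% against 4.44% for Esrrb in library 3 and 3.88% against 3.48% for Nr5a2 in library 4, and its part in the ratios was not tested.

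Among cells with a Zfp42 UMI, the ratios between members were smaller, from 0.06 to 0.61, and all lay above 0. The lowest, Tfcp2l1 by Nr5a2 in library 1, had an interval that included 0. A UMI of all 3 genes was found in 1.43%, 1.42%, 0.887% and 0.576% of cells at 5000 UMIs, where independent draws from the 3 shares would give 1.18%, 0.877%, 0.531% and 0.123%.

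After counting noise was taken off, the correlation over cells between Esrrb and Tfcp2l1 was 0.54, 0.73, 0.58 and 0.74 in libraries 1 to 4, each over at least 7464 cells of 1 library that share its preparation. It was 0.68, 0.70, 0.67 and 0.61 between Esrrb and Nr5a2, and 0.34, 0.63, 0.58 and 0.67 between Tfcp2l1 and Nr5a2. Esrrb had 0.63, 0.71, 0.71 and 0.77 with Sox2, the partner of Pou5f1 on DNA, and -0.49, -0.68, -0.43 and -0.60 with Dnmt3b, a de novo DNA methyltransferase. With Pou5f1 its sign was mixed, from -0.28 in library 2 to 0.25 in library 3. These values are descriptions of the cells and carry no test.

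**Figure D3:**
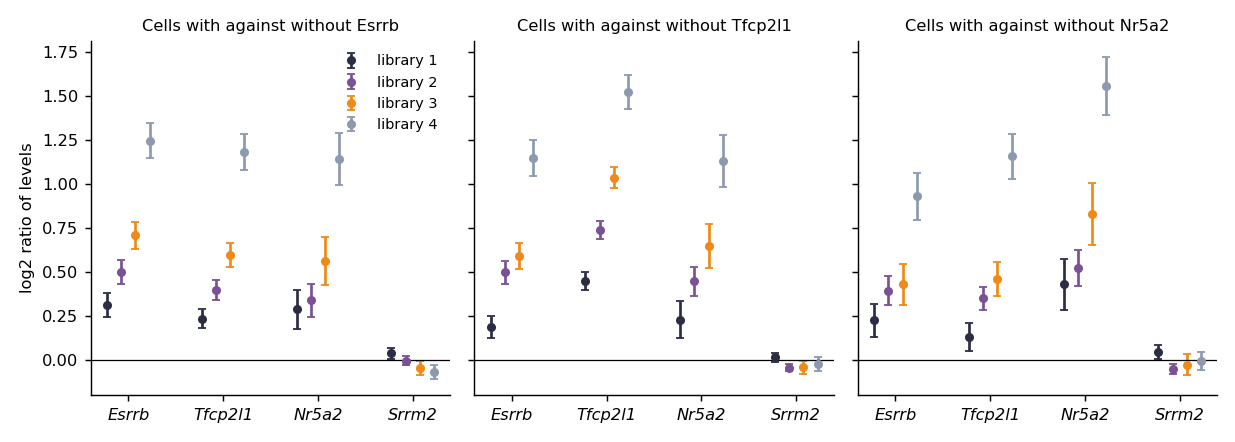
log2 ratio of the level in cells with a UMI over cells without one, for the 3 genes and Srrm2 and for classes set on each gene in turn; points are libraries and bars are 95% intervals from Poisson counts. The 3 genes lie above 0 in each library and Srrm2 lies between -0.07 and 0.04.

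Other genes were then sought that differed with each member, over 10679 genes with at least 200 UMIs in every library. A gene was called when its log2 ratio between cells with and without a UMI of the member was at least 0.32 in size and of 1 sign in all 4 libraries; the call is a rule of size, not a test. With Esrrb, 5 genes were called higher (0.0468% of those tested) and 267 lower (2.5%). With Tfcp2l1, 14 were higher (0.131%) and 282 lower (2.64%), and with Nr5a2, 6 were higher (0.0562%) and 204 lower (1.91%). Library 1 held these counts down: without it, 113, 157 and 70 genes were called higher and 594, 623 and 500 lower. No member was called with another member, since each such ratio in library 1 lay under the limit.

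The genes higher with a member changed with the random draw. Under another draw, 1 of the 5 genes called with Esrrb, 2 of the 14 with Tfcp2l1 and 0 of the 6 with Nr5a2 were called again. Panct2, a noncoding RNA, was the gene called again with Esrrb, and its log2 ratios were 0.35, 0.58, 0.64 and 0.90. At 3000 UMIs per cell, 0 of the 5 genes called with Esrrb, Panct2 included, were called again. Gm2381, a protein-coding gene model, stood at 16.9 CPM with and 8.07 CPM without an Esrrb UMI in library 4, and at 12.8 and 9.98 CPM in library 1. Pga5, a pepsinogen gene, had log2 ratios of 0.34, 0.43, 0.63 and 1.06, and the noncoding RNAs Gm20703 and Gm47725 completed the list. With Tfcp2l1 the leading genes were Calcoco2, an autophagy receptor (0.46, 0.79, 0.70 and 1.19), Rnd1, the transcription factors Sox21 and Msc, and the noncoding E130202H07Rik. With Nr5a2 they were Ypel2, E130202H07Rik, Gm47725, the receptor tyrosine kinase Kit (0.35, 0.44, 0.48 and 0.85) and Cpne9, a copine. All of these were low, with at most 20.3 CPM in either class of any library.

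More of the genes lower with a member were called again. Another draw kept 199 of 267 with Esrrb, 190 of 282 with Tfcp2l1 and 136 of 204 with Nr5a2, and 148 genes were called lower with all 3. The lists of Esrrb and Tfcp2l1 shared 202 genes, 75.7% of the first and 71.6% of the second. Tagln, a smooth muscle actin-binding protein, stood at 3.55, 3.63, 62.5 and 19.8 CPM in cells with an Esrrb UMI and at 30.2, 18.7, 384 and 129 CPM in cells without. Acta2, smooth muscle actin, had log2 ratios of -4.65, -2.98, -2.97 and -2.52 with Esrrb, resting on 8 and 15 UMIs in the cells with Esrrb of libraries 1 and 2. Its direction did not hold among cells with a Zfp42 UMI, where its largest ratio over libraries was 1.28 with Esrrb. The ratios of Tagln were -3.09, -2.36, -2.62 and -2.70 with Esrrb and -3.82, -2.45, -2.87 and -2.09 with Nr5a2. Pkdcc, a secreted kinase, was named with both of these members, at -2.02, -2.06, -2.61 and -2.60 with Esrrb, and under another draw its weakest library had -1.07 with Esrrb.

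Enpp2 (autotaxin, which makes lysophosphatidic acid) had -2.55, -1.75, -2.01 and -1.98 with Esrrb and -2.54, -1.98, -2.01 and -1.79 with Tfcp2l1. Car4, a carbonic anhydrase, had -3.17, -1.77, -2.03 and -1.91 with Esrrb. The semaphorin Sema6a had ratios with Tfcp2l1 of -2.43, -1.97, -1.96 and -1.61. Galnt3, an enzyme of O-glycosylation, had -1.90, -1.71, -1.69 and -1.97 with Nr5a2. In the cells with a Zfp42 UMI alone, 10019 genes were tested. Of these, 18, 25 and 23 were called lower with Esrrb, Tfcp2l1 and Nr5a2, and 0, 1 and 0 higher.

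Genes were also ranked by Pearson correlation with each member, on log-normalised counts over the cells of each library, by their weakest library. This describes cells that share a library and its depth. Counting noise was left in and lowers r most for genes with few UMIs, so the ranking favours genes with many. With Esrrb in library 1, r was 0.13 for Tfcp2l1, 0.08 for Nr5a2 and 0.19 for Sox2. Without counting noise the values were 0.54, 0.68 and 0.63. For Esrrb the first was Tet1, a dioxygenase that oxidises 5-methylcytosine in DNA, with r of 0.20, 0.22, 0.38 and 0.35 in libraries 1 to 4, followed by Sox2, Klf2, Dppa5a and Kat6b. For Tfcp2l1 it was Dppa5a, an RNA-binding protein of pluripotent cells, at 0.20, 0.38, 0.35 and 0.41, followed by Fabp3, Tubb2b, Sept1 and Tdh. For Nr5a2 it was Sox2, at 0.13, 0.22, 0.21 and 0.32, followed by Kdm5b, Tet1, Zfp42 and Cobl. The kinase gene Pim2 was among the 5 most negative genes of all 3 members, with -0.19, -0.38, -0.30 and -0.44 for Esrrb, and so was Pou3f1.

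All 12 genes of the naive network were higher in every library in cells with an Esrrb UMI and in cells with a Tfcp2l1 UMI. With Nr5a2, 11 of 12 were, but none was called with any member. The share of all tested genes that lay above 0 in every library was not counted, so these counts have no background of their own. Their median log2 ratios with Esrrb were 0.13, 0.34, 0.51 and 0.97 in libraries 1 to 4, where the medians over all genes tested lay between -0.04 and -0.01. With Tfcp2l1 they were 0.14, 0.41, 0.51 and 1.02, and with Nr5a2 0.11, 0.33, 0.42 and 0.86. Tfcp2l1 had the widest ratios for Prdm14 (0.23, 0.71, 0.75 and 1.64), which represses DNA methyltransferase genes, and for Tbx3 (0.31, 0.76, 0.79 and 1.46). Klf5, a Krüppel-like factor, had the narrowest range with Esrrb, from 0.07 to 0.24. Gbx2 was the exception with Nr5a2, at -0.02 in library 1.

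The core factors differed among themselves. Sox2 was higher in every library with each member, at 0.18, 0.26, 0.49 and 0.64 with Esrrb. Pou5f1 lay between -0.07 and 0.12 with all 3 members, and Sall4 between -0.08 and 0.16. Of the LIF and STAT3 genes, the receptor chains Lifr (0.18, 0.23, 0.35 and 0.61) and Il6st (0.05, 0.22, 0.20 and 0.60) were higher with Esrrb in every library, as was Socs3 (0.03 to 0.31). The kinase gene Jak1 lay below 0 with Esrrb in every library, down to -0.28 in library 3, while Stat3 lay between -0.03 and 0.18 with the 3 members. None of the 5 genes of that list was called. Of the 3 coactivators, Ncoa3 had 0.10, 0.17, 0.31 and 0.56 with Esrrb, and none was called. Tfap2c, the only trophectoderm gene with enough counts and one that mESC also express, had 0.08, 0.37, 0.52 and 1.21 with Esrrb.

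Of the 6 Wnt and Tcf genes, Lef1 was called lower with Esrrb (-0.64, -0.59, -0.34 and -0.74) and with Tfcp2l1 (-0.61, -0.74, -0.70 and -1.01), and none was called with Nr5a2. Tcf7l1, the known repressor of Esrrb, lay between -0.13 and 0.10 with Esrrb, although its level over libraries ran opposite to that of Esrrb. Ctnnb1, which encodes beta-catenin, lay between -0.08 and 0.06 with the 3 members. The relatives Esrra, Tfcp2 and Ubp1 were not called with any member.

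Of the 8 formative genes, 7 had enough counts. With Esrrb, 4 were called lower, with Tfcp2l1 5 and with Nr5a2 3, and none was called higher. Pou3f1 (Oct6), a POU factor of the formative state, had -1.54, -1.44, -2.21 and -1.67 with Esrrb, and in library 4 it stood at 61.7 CPM in cells with a Tfcp2l1 UMI and 186 CPM in cells without. Dnmt3b had -0.59, -0.77, -0.67 and -0.96 with Esrrb, -0.66, -0.89, -0.73 and -0.99 with Tfcp2l1 and -0.53, -0.71, -0.60 and -0.77 with Nr5a2. Sox11 was also called with each member, and Sox4 with Esrrb and Tfcp2l1. Otx2, which drives the exit from the naive state, had -0.08, -0.37, -0.05 and -0.30 with Esrrb and -0.30, -0.65, -0.47 and -0.59 with Tfcp2l1, and was not called. Utf1 lay between -0.17 and 0.04 with all members.

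All 4 keratin and contractile genes were called lower with each member. Krt8 had -2.82, -1.88, -2.52 and -2.34 with Nr5a2 and -2.54, -2.08, -1.67 and -1.59 with Tfcp2l1. With keratin-high cells left out, that is, cells with at least 3 Krt8 and Krt18 UMIs in the draw, 189, 196 and 129 genes were called lower with Esrrb, Tfcp2l1 and Nr5a2. The streak, primitive endoderm, two-cell-like and fibroblast lists had no gene with enough counts.

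**Figure D4:**
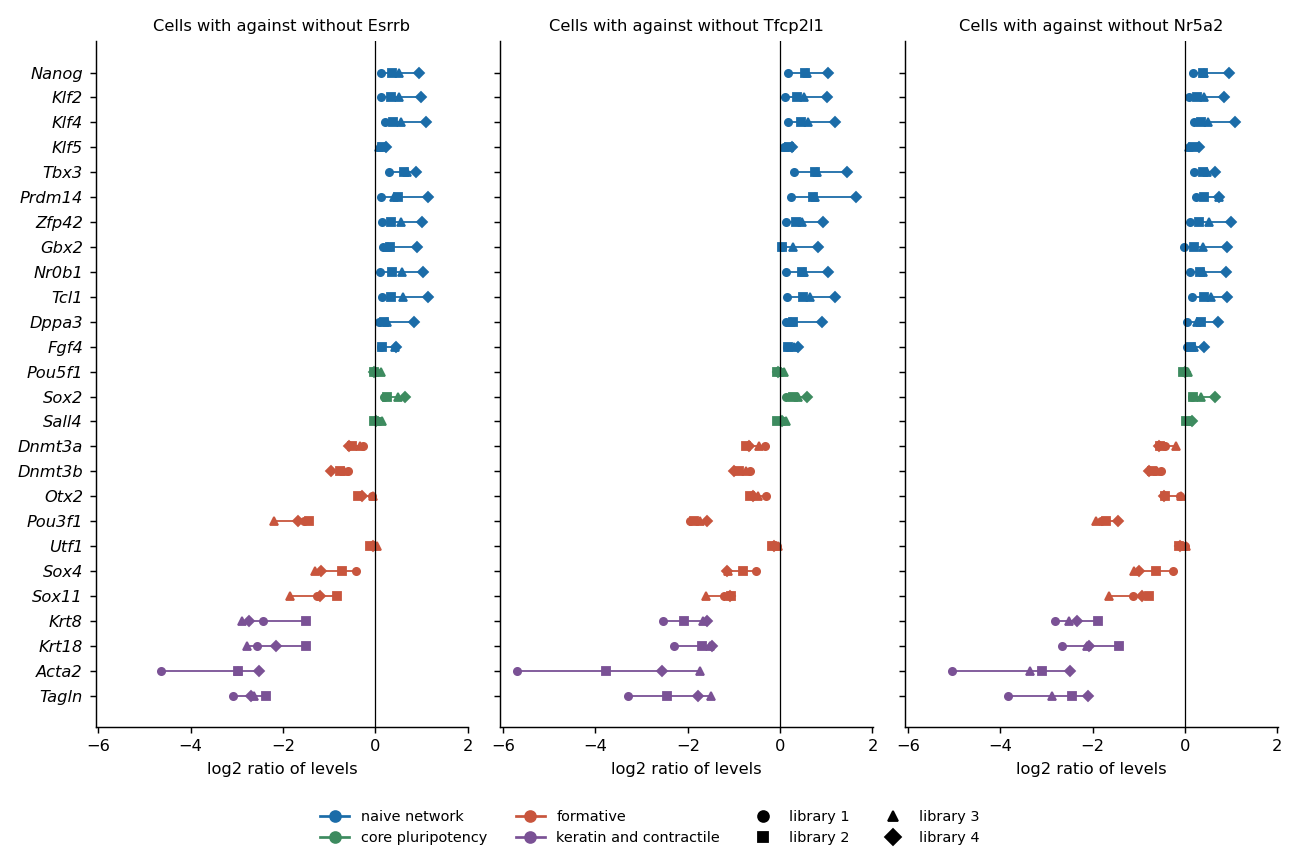
log2 ratio of the level in cells with a UMI of Esrrb, Tfcp2l1 or Nr5a2 over cells without, for the tested genes of 4 lists; symbols are libraries, colours are lists, and lines join the lowest and highest library. Naive genes lie to the right of 0 (except Gbx2 in library 1 with Nr5a2), formative genes mostly to the left, and keratin and contractile genes furthest left.

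Levels of the 3 genes were finally compared between classes of cells set by other genes in the draw. Cells with a Zfp42 UMI made up 85.6%, 80.7%, 74.8% and 57.0% of libraries 1 to 4. Esrrb stood at 70.7, 59.4, 59.6 and 46.0 CPM in these cells and at 43.0, 22.6, 16.7 and 8.42 CPM in cells without, a difference of 1.65, 2.62, 3.56 and 5.46-fold. Tfcp2l1 differed 1.52, 2.56, 2.92 and 5.07-fold and Nr5a2 1.56, 2.69, 3.65 and 5.31-fold. The fold was thus lowest in library 1 and highest in library 4 for all 3 genes. Cells of 1 even Zfp42 level would show a UMI in 92.8%, 92.9%, 88.7% and 83.5% of cells, so the class without a UMI also holds cells missed by counting, to a different degree in each library, and the part of this in the folds was not tested.

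Part of the difference between libraries remained within the cells with a Zfp42 UMI. There, library 1 exceeded library 4 by 1.54-fold for Esrrb (1.48 to 1.60) and 2.28-fold for Tfcp2l1 (2.20 to 2.37), and library 2 exceeded library 3 by 1.67-fold for Nr5a2 (1.58 to 1.76). For Nr5a2 this is another pair than over all kept cells, since library 4, at 22.7 CPM, stood above library 3, at 21.1 CPM, in these cells. In cells without a Zfp42 UMI, library 1 exceeded library 4 by 5.10-fold for Esrrb, 7.63-fold for Tfcp2l1 and 3.96-fold for Nr5a2.

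Cells with an Fgf5 or Pou3f1 UMI, taken as the formative side, made up 4.82%, 22.6%, 14.8% and 44.7% of the libraries. Other formative markers were not checked in this class, and Pou3f1 had far more UMIs than Fgf5 (10651 against 303 in library 3). Esrrb stood at 0.432, 0.435, 0.262 and 0.275 times its level in the other cells, Tfcp2l1 at 0.456, 0.344, 0.321 and 0.259 times and Nr5a2 at 0.412, 0.472, 0.237 and 0.313 times. Which gene was lowest differed between libraries: the fold of Tfcp2l1 was below that of Nr5a2 in libraries 2 and 4 and above it in library 3, each beyond counting error. Esrrb stood at 12.5 to 29.7 CPM and Nr5a2 at 4.66 to 16.8 CPM in these cells, and how much of this is RNA from other droplets was not tested.

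Cells with a Tbx3 UMI, the naive side, ranged from 1.89% of library 4 to 29.7% of library 1. Esrrb was 1.20 to 1.99-fold higher in them, with 77.0 against 51.3 CPM in library 2, and Tfcp2l1 1.24, 1.41, 1.72 and 2.38-fold higher. Nr5a2 was 1.12, 1.07, 1.47 and 1.71-fold higher, and in library 2 its interval, 0.933 to 1.21, included 1. Tfcp2l1 UMIs per Nr5a2 UMI were more numerous with Tbx3 than without in all 4 libraries, by 1.11, 1.32, 1.17 and 1.39-fold, with every interval above 1.

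Keratin-high cells, with at least 3 Krt8 and Krt18 UMIs, numbered 65, 45, 674 and 309, and had higher depth (medians of 22482 to 26211 UMIs, against 18351 to 21894 in the rest). Esrrb stood at 0.120, 0.0842, 0.165 and 0.166 times its level in the other cells, and Nr5a2 at 0.0986, 0.178, 0.160 and 0.197 times. Tfcp2l1 stood at 0.275, 0.360, 0.282 and 0.341 times, and its ratio to Nr5a2 was 2.79, 2.02, 1.76 and 1.72 times that of the other cells, above 1 beyond counting error in libraries 1, 3 and 4 and with an interval of 0.775 to 5.26 in library 2. The ratio of Esrrb to Tfcp2l1 was 0.437, 0.234, 0.585 and 0.488 times that of the other cells, below 1 beyond counting error in all 4 libraries, though libraries 1 and 2 gave few cells. In library 3, an Esrrb UMI was found in 3.71% of the keratin-high cells at 5000 UMIs, a Tfcp2l1 UMI in 8.31% and an Nr5a2 UMI in 1.34%, against 24.6%, 28.6% and 9.35% of the rest. In library 4 the shares were 2.27%, 4.53% and 0.971% against 13.6%, 13.3% and 7.48%. How much of these low levels is RNA from other droplets was not tested.

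Cells with a UMI of the two-cell-like list (Zscan4c and others) numbered 44 in all. Esrrb stood at 1.06 times its level in the other cells (0.720 to 1.51), Tfcp2l1 at 0.661 times (0.436 to 0.962) and Nr5a2 at 0.979 times (0.521 to 1.67). At this depth no difference was detectable for Esrrb and Nr5a2. These values pool the cells of 4 libraries whose levels differ, and in library 1, with 12 of the cells, Tfcp2l1 stood at 99.6 CPM against 98.5 CPM in the other cells.

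**Figure D5:**
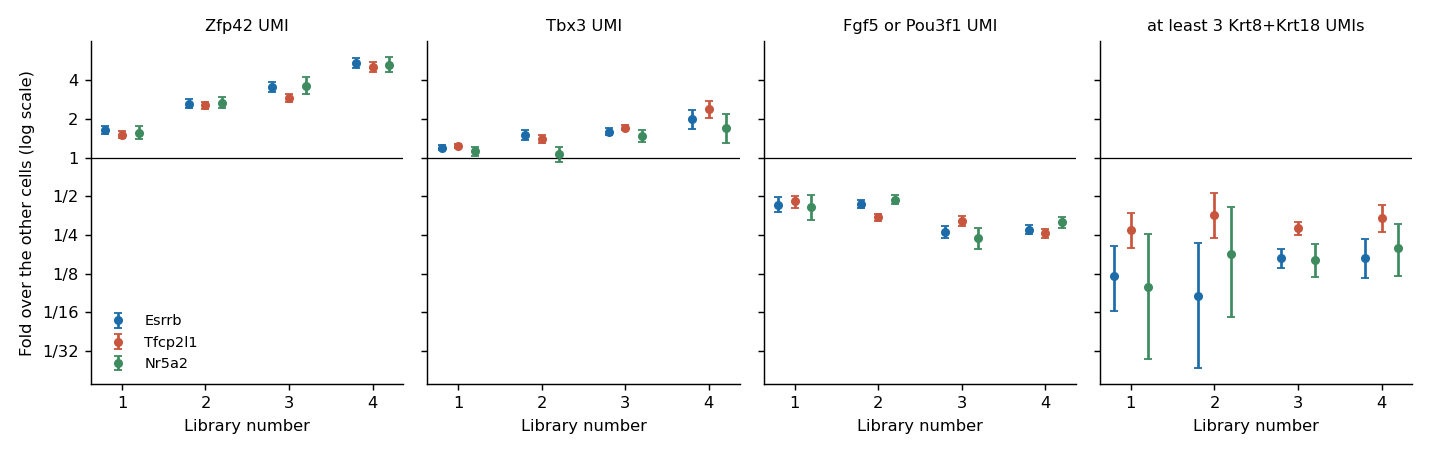
Fold of each gene's level in 4 classes of cells over the cells outside the class, by library (log axis; bars are 95% intervals from Poisson counts; the line at 1 marks no difference). The 3 genes lie above 1 with Zfp42 (1.52 to 5.46), near or above 1 with Tbx3 (1.07 to 2.38), and below 1 with Fgf5 or Pou3f1 (0.237 to 0.472) and with Krt8 and Krt18 (0.0842 to 0.360).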

How the data were processed

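Whole-cell 3′ transcriptomes of mESC were measured in 4 libraries. The authors aligned the reads to mm10 with Cell Ranger 6.1.2, joined the libraries with its aggregation step, which evens depth between libraries by subsampling reads, and deposited raw UMI counts per gene and barcode. The members and gene lists were chosen with earlier results of these data known. Cells were kept per library with UMIs and genes at or above the mean minus 1 SD and at most 10% mitochondrial UMIs. No doublet caller was used; 1615 cells above 2 times the median UMIs were left out in an alternative.

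Levels are CPM with exact Poisson intervals at 95%; shares have exact (Clopper-Pearson) binomial intervals. A count of 0 allows up to 3 counts, 0.0150 to 0.0180 CPM. Cells were thinned to 5000 UMIs without replacement for classes and shares; ratios used the UMIs outside the draw. The text names, for each member, the 5 called genes with the largest ratio in their weakest library, in each direction, and genes of the lists; genes ranked by Pearson correlation are named outside this rule, after their values were seen. Cells are not replicates, so no p-value was computed. The scripts (Python 3.11.15, numpy 2.4.6, scipy 1.17.1, pandas 2.3.3, numba 0.67.0, matplotlib 3.10.9) were tested on simulated data. Sequences are from RefSeq (GRCm38.p6) and coordinates from GENCODE (GRCm38).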

Additional observations from a re-analysis of the deposited data

How the results depend on the processing

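No paired analysis was possible because the library numbers are not tied to the labelled samples, so replicate numbers could not be matched. Size factors in place of CPM widened the fold between the highest and lowest library to 2.55 for Esrrb and 3.74 for Tfcp2l1. Leaving out each library in turn gave folds of 1.36 to 2.20 for Esrrb, 1.48 to 3.23 for Tfcp2l1 and 1.63 to 2.03 for Nr5a2. In cells with a Zfp42 UMI, an alternative chosen after seeing the data, the folds were 1.54, 2.28 and 1.67, the last between libraries 2 and 3.

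Counts of called genes moved most. At 1.5-fold, 0 genes were higher with any member and 92, 103 and 80 lower with Esrrb, Tfcp2l1 and Nr5a2. With at least 1000 UMIs, 1, 4 and 1 were higher and 59, 70 and 37 lower. In cells with a Zfp42 UMI, 0, 1 and 0 were higher and 18, 25 and 23 lower. Another draw gave 3 genes higher with Esrrb; without keratin-high cells there were 3 higher with Esrrb and 129 lower with Nr5a2; without cells of very high UMIs there were 3 higher with Nr5a2. Leaving out each library in turn gave 5 to 113, 21 to 157 and 12 to 70 genes higher, and 275 to 594, 290 to 623 and 212 to 500 lower; the highest counts were those without library 1.

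Some named genes changed sign. In cells with a Zfp42 UMI, the largest log2 ratio of Acta2 over libraries was 1.28 with Esrrb, 0.052 with Tfcp2l1 and 0.34 with Nr5a2, on few counts, and the smallest of Ypel2 with Nr5a2 was -0.17. At 3000 UMIs per cell, the smallest ratios with Nr5a2 were -0.073 for Ypel2, -0.38 for Gm47725 and -0.077 for Cpne9, and under another draw that of E130202H07Rik was -0.074. The causes were not tested. The ratios between members kept their sign under the 3 alternatives in which they were recomputed (another draw, cells with a Zfp42 UMI, and without keratin-high cells). The spread over all UMIs and the correlations without counting noise were added after seeing the data, since the spread of Nr5a2 in 1 draw moved between draws. Low counts of Nr5a2, down to 2634 UMIs in library 4, limit its values.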
